A study of Homo sapiens with 34 samples.

Results

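The genes described here are 10 markers of squamous differentiation, SPRR1A, SPRR1B, SPRR2A, IVL, TGM1, KRT13, KRT16, A2ML1, DMKN and SBSN. They were taken by symbol from a table of read counts for 26336 genes, and 10 of 10 were found. The table covers poly(A) RNA from 4 human prostate cell lines in 34 libraries and 17 groups. RWPE cells, a non-tumorigenic prostate epithelial line, were kept in serum-free keratinocyte medium with EGF and bovine pituitary extract. LNCaP is labelled lymph node metastatic, although the design text uses it to model early adenocarcinoma. Bone metastases gave rise to both VCaP and MDAPCa2a. The 3 cancer lines were kept in media with fetal bovine serum. Each type of prostate cell is represented by a single line, so a difference between lines is not a difference between disease stages.

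Cells were grown on plastic or on ACP, plates bearing a mineral layer of amorphous calcium phosphate. Control medium was each line's own medium, stripped medium held serum treated with charcoal and dextran, which removes steroids, and androgen medium added androgen to stripped medium, at 100 mM according to the labels. Sample titles say DHT where the condition labels say testosterone, and the word androgen is used for both. RWPE had 3 groups, plastic control (n = 2), ACP control (n = 2) and ACP androgen (n = 3). LNCaP and VCaP each had plastic control, plastic stripped, ACP control, ACP stripped and ACP androgen, with n = 2 except VCaP plastic stripped (n = 1). MDAPCa2a had plastic control, plastic stripped, ACP stripped and ACP androgen (n = 2 each), on plastic with a protein coating that the ACP plates lacked. The treatment protocol gives stripped serum for androgen medium, and RWPE control medium held no serum, so serum and androgen cannot be told apart in RWPE. Nothing states that replicates came from separate cultures, so p-values measure the spread between these libraries, which may be technical.

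Squamous differentiation is the programme by which cells leaving the basal layer of a stratified epithelium build a cornified envelope, a sheet of proteins cross-linked under the cell membrane by transglutaminases. Small proline-rich proteins and involucrin are its precursors, and keratins of the upper layers replace the basal pair KRT5 and KRT14. The prostate gland is not stratified in this way, and squamous genes there are known chiefly from squamous metaplasia and from cultured basal-type cells.

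Library totals lay between 15.4 M and 44.8 M counts, with 34.9 M or more in each of the 8 plastic control libraries. Plastic control is labelled continuous culture and every other group day 4, so a library batch and that group cannot be told apart. CPM is a gene's reads as counts per M reads of the library after TMM scaling, a correction for differences in library composition. The 7 fibroblast markers summed to 28 to 33.4 CPM in RWPE plastic control, 26.9 to 31.7 CPM in ACP control and 14.9 to 21.1 CPM in ACP androgen, and their part in the members' values was not tested. The 10 basal markers summed to 4780 to 19700 CPM in RWPE libraries and to 61.3 to 281 CPM in those of the cancer lines, and the 8 luminal prostate markers to 809 to 1470 CPM against 2150 to 21200 CPM. In bulk RNA, fewer cells of a type and less RNA per cell cannot be told apart. Replicates of a group differed by more than sampling noise in every pair (chi-square per gene of at least 10.7).

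Promoter sequence was looked at first because many cornified envelope genes are known targets of AP-1, a dimer of FOS and JUN proteins. RefSeq start sites (GRCh38.p14) were given for 7 of the 10 genes, in 10 windows of 250 bases before the start. TGM1, KRT13 and KRT16 were not among them. The AP-1 motif TGANTCA, which reads the same on both strands, was found in 7 of the 10 windows and for 6 of the 7 genes, whereas 6.57% of 35116 windows of this length in all genes hold it. TATAAA on either strand was found in 4 of 10 windows and in 10.7% of all windows. A relaxed form of the palindromic androgen and glucocorticoid response element was found in 0 of 10 and in 0.327% of all. A match is a string of letters, not a measured site, and the files used here hold no data on binding. The 5 windows below are those of the envelope precursors and of SBSN, shown 5′ to 3′ along the gene with each AP-1 match in capitals.
SPRR1A, chr1:152983831-152984080, plus strand: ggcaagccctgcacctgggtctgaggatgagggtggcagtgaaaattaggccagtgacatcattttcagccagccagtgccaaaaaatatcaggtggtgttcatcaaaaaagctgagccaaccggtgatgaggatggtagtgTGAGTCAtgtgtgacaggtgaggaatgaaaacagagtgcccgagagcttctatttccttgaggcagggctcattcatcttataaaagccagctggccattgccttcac
SPRR1B, chr1:153030953-153031202, plus strand: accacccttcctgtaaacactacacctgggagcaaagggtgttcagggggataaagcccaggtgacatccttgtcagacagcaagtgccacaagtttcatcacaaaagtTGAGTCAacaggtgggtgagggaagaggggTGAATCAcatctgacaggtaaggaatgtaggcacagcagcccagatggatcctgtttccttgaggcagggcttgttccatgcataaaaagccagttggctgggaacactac
SPRR2A, chr1:153057513-153057762, minus strand: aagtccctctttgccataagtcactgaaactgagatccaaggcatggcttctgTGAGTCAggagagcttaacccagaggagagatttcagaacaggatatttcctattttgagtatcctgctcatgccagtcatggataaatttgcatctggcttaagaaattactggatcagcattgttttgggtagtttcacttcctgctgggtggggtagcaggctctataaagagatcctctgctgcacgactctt
IVL, chr1:152908296-152908545, plus strand: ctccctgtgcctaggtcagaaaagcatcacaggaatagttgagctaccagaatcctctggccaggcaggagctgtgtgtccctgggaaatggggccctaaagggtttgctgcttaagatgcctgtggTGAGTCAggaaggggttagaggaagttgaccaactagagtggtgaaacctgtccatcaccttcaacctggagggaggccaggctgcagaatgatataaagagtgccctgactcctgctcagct
SBSN, chr19:35528312-35528561, minus strand: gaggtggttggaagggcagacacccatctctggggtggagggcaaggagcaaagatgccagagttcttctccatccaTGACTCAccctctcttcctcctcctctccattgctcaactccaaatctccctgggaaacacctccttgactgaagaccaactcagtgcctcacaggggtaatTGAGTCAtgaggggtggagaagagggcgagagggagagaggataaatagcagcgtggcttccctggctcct

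The match began 108 bases before the start in SPRR1A, 197 in SPRR2A and 123 in IVL. SPRR1B held 2, at 141 and 111 bases, and SBSN held 2, at 173 and 71 bases. In DMKN it lay in 2 of 3 windows, at 92 and 69 bases. Neither A2ML1 window held the motif. The 3 SPRR genes and IVL lie on chromosome 1 and DMKN and SBSN on chromosome 19, while A2ML1 is on chromosome 12, TGM1 on 14 and KRT13 and KRT16 on 17.

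The members differed widely in level within RWPE. Divided by exon length (GENCODE v29 models), KRT16 stood highest in all 3 RWPE groups, at 182 CPM per kb in plastic control, 370 in ACP control and 150 in ACP androgen. TGM1 and SPRR1B followed in plastic control, at 21.1 and 15.7 CPM per kb. SPRR2A, IVL and A2ML1 were the lowest 3 in each RWPE group, and SPRR2A in plastic control was at 0.308 CPM per kb. The SPRR1A model holds only 270 bases of coding length, so its per-kb level is not on the same footing. Exon length joins the exons of all transcripts of a gene, 7444 bases for DMKN and 7303 for A2ML1. The order of per-kb levels depends on this choice. Before division by length, DMKN stood above TGM1 in plastic control, at 93.9 against 78.8 CPM. Of 50-base stretches of each gene's transcripts, 32.7% in SPRR2A also occur in SPRR2B, SPRR2D or SPRR2E, 16.5% in KRT16 occur in KRT14 or KRT16 pseudogenes, and 11.3% in SPRR1A occur in SPRR1B. Counts of these 3 genes are therefore uncertain as to copy. A2ML1 overlaps an antisense gene, and whether counting used strand is not given in the sources used here.

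**Figure D1:**
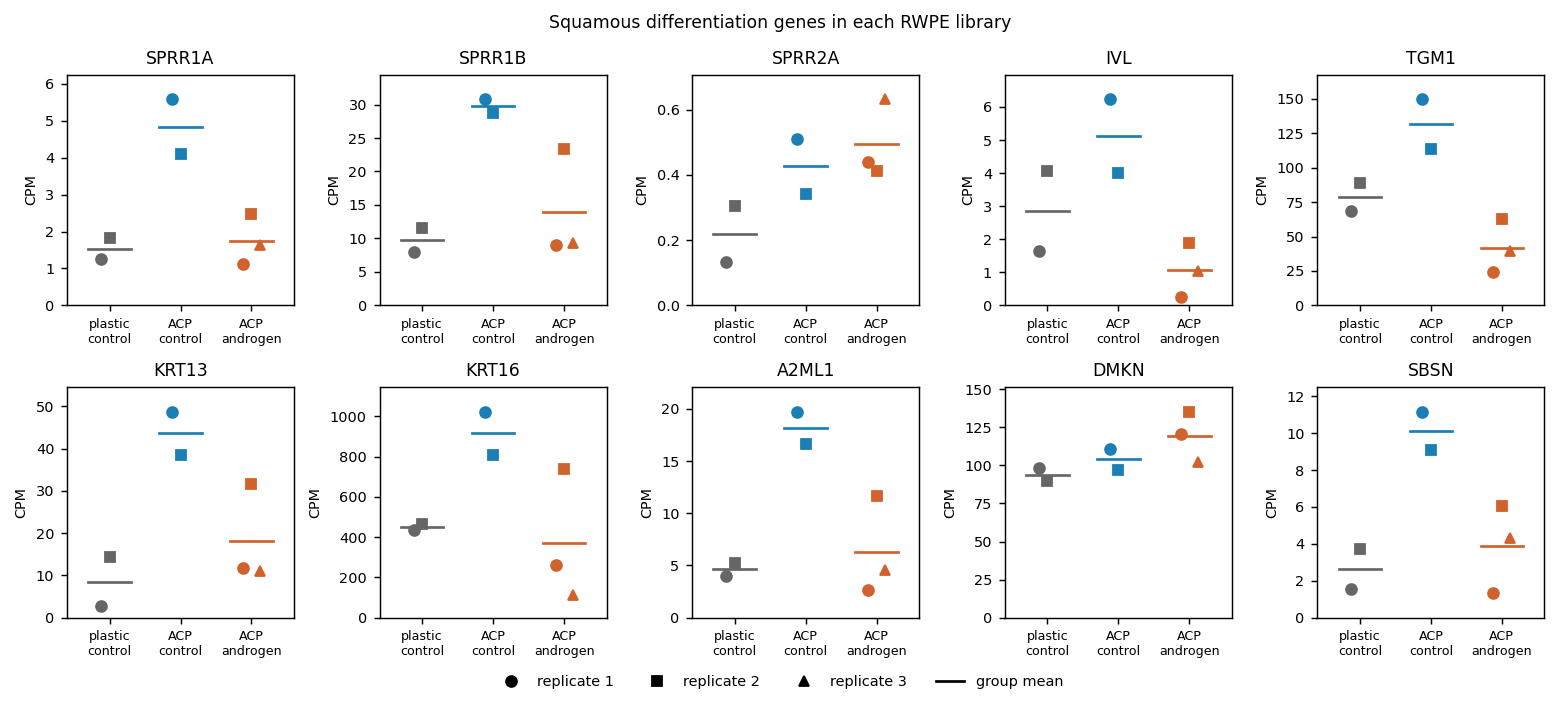
CPM of the 10 genes (y axis, from 0, 1 panel per gene) in each RWPE library by group (x axis), with marker shape for the replicate number and a bar for the group mean. Both ACP control libraries lie above both plastic control libraries for 8 of 10 genes, and androgen replicate 2 is the highest of the 3 androgen libraries for 9 of 10.

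The first comparison set RWPE on ACP at day 4 against RWPE on plastic in continuous culture, both in control medium. Surface, labelled culture time and library batch cannot be told apart in it. SPRR1A rose on ACP, from 1.53 ± 0.41 to 4.84 ± 1.06 CPM (SD, n = 2 each), and it was the only member called of 10. The other 9 had positive differences that did not pass the test. Among all 14293 genes tested, 4.16% were called in either direction and 2.83% higher, so the share of members called is near the background. The median log2 difference was 1.34 over the members and 0.03 over all genes. Both ACP libraries exceeded both plastic libraries for 8 members, an order seen for 33.2% of all genes.

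Among the envelope precursors, SPRR1A measured 1.25 and 1.82 CPM in the plastic libraries and 5.59 and 4.09 CPM in the ACP libraries, with no overlap. Its log2 difference was 1.68 ± 0.39 (SE; edgeR quasi-likelihood test, adjusted p = 0.0431). SPRR1B, its close relative, measured 8.01 and 11.5 CPM on plastic and 30.8 and 28.7 CPM on ACP, a log2 difference of 1.63 ± 0.40 (adjusted p = 0.0507 by edgeR). The groups of SPRR1B lay wholly apart, yet the value missed the threshold. IVL, involucrin, overlapped at 1.65 and 4.07 against 6.23 and 3.99 CPM (log2 0.86 ± 0.58, adjusted p = 0.4 by edgeR). SPRR2A had only 5 to 15 reads per library in these groups, at 0.133 and 0.303 against 0.511 and 0.341 CPM, and no difference was detectable at this depth (log2 0.99 ± 0.63). TGM1, the membrane transglutaminase that cross-links these precursors, measured 68.6 and 89.0 CPM on plastic and 150 and 114 CPM on ACP, without overlap (log2 0.76 ± 0.35, adjusted p = 0.228 by edgeR).

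KRT13, a keratin of the upper layers of mucosal epithelia, had the largest difference and an uneven control pair. It measured 2.73 and 14.3 CPM on plastic and 48.8 and 38.6 CPM on ACP (log2 2.38 ± 0.66, adjusted p = 0.0697 by edgeR). Without plastic control replicate 2 its log2 difference was 4.02 (adjusted p = 0.0123 by edgeR). KRT16, a keratin induced in wounded and hyperproliferative epidermis, measured 435 and 465 CPM on plastic and 1024 and 806 CPM on ACP. Both ACP values were the higher, with a log2 difference of 1.05 ± 0.62 (adjusted p = 0.341 by edgeR).

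A2ML1, a secreted protease inhibitor of the upper epidermis, measured 4.03 and 5.21 CPM on plastic and 19.8 and 16.6 CPM on ACP, with no overlap (log2 2.00 ± 0.50, adjusted p = 0.0522 by edgeR). SBSN, a secreted protein of suprabasal layers, measured 1.57 and 3.74 CPM against 11.2 and 9.11 CPM (log2 1.95 ± 0.55, adjusted p = 0.0736 by edgeR). DMKN, another secreted protein encoded near SBSN, stood apart in size. It was at 98.2 and 89.5 CPM on plastic and 111 and 97.2 CPM on ACP, overlapping groups with a log2 difference of 0.17 ± 0.19. The SPRR1A call was lost without any one of the 4 libraries (log2 1.43 to 1.98, adjusted p 0.138 to 0.322 by edgeR), when genes called fell from 595 to between 4 and 106. Without plastic control replicate 2, KRT13 was the member called instead. In the fit of all 34 libraries SPRR1A was not called (adjusted p = 0.187), whereas KRT13 and A2ML1 were (adjusted p = 0.0288 and 0.0296 by edgeR).

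**Figure D2:**
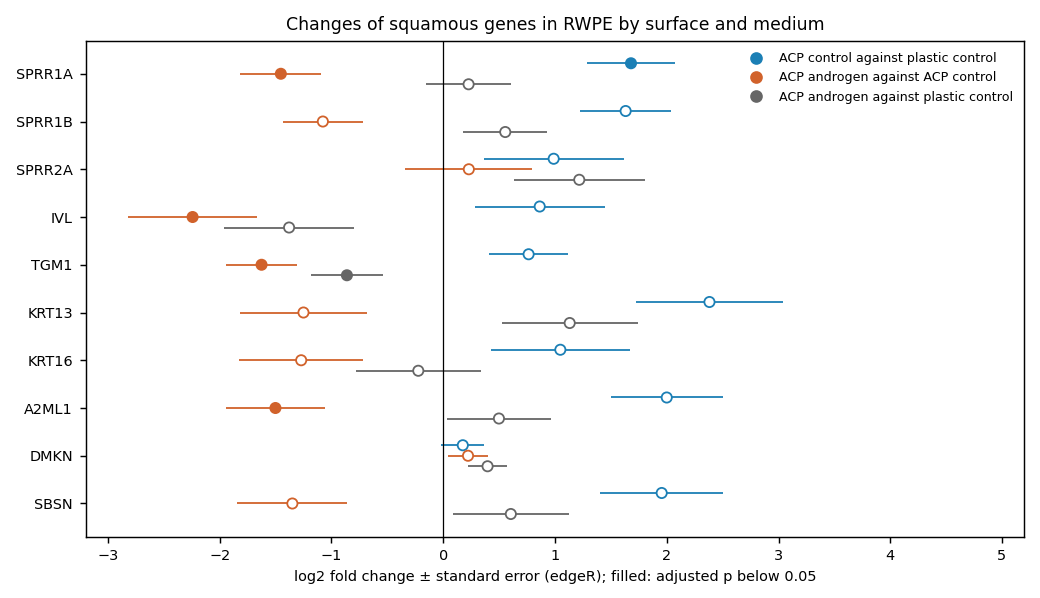
Log2 fold change with its standard error (x axis) for each gene (y axis) in the 3 RWPE comparisons, with filled points for an adjusted p below 0.05. SPRR1A is the only filled point for ACP control against plastic control, SPRR1A, IVL, TGM1 and A2ML1 are filled for androgen against ACP control, and TGM1 for androgen against plastic control.

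The second comparison was androgen medium against control medium on ACP in RWPE. IVL, TGM1, A2ML1 and SPRR1A fell, 4 of 10 members, against 8.05% of all genes called lower and 19.1% called in either direction. No member rose. The median log2 difference was -1.31 over the members and -0.02 over all genes, and 8 members had all androgen libraries below both control libraries, an order seen for 25.3% of genes. The ACP control libraries serve in this comparison and in the surface comparison, so the 2 sets of values are not independent, and a high ACP control value adds to both.

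IVL fell most among the called genes, from 6.23 and 3.99 CPM to 0.25, 1.88 and 1.04 CPM. The androgen libraries held 4, 32 and 23 reads, and the log2 difference was -2.24 ± 0.58 (adjusted p = 0.0271 by edgeR). TGM1 fell from 150 and 114 CPM to 24, 62.7 and 39.1 CPM (log2 -1.63 ± 0.32, adjusted p = 0.017 by edgeR). Both genes had every androgen library below every control library. A2ML1 fell from 19.8 and 16.6 CPM to 2.69, 11.7 and 4.6 CPM (log2 -1.5 ± 0.44, adjusted p = 0.0407 by edgeR). SPRR1A fell from 5.59 and 4.09 CPM to 1.13, 2.47 and 1.62 CPM (log2 -1.45 ± 0.36, adjusted p = 0.0247 by edgeR). In each of these genes androgen replicate 2 was the highest of its group.

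The 4 members that followed the same order without passing the test were SPRR1B, KRT13, KRT16 and SBSN. SPRR1B measured 9.08, 23.3 and 9.29 CPM with androgen (log2 -1.08 ± 0.36, adjusted p = 0.0584 by edgeR). KRT13 measured 11.8, 31.5 and 10.9 CPM (log2 -1.25 ± 0.57), and KRT16 262, 741 and 112 CPM (log2 -1.27 ± 0.55). Here too replicate 2 lay far above the other androgen libraries. SBSN measured 1.31, 6.05 and 4.33 CPM (log2 -1.35 ± 0.49, adjusted p = 0.0752 by edgeR). SPRR2A and DMKN did not share the order. SPRR2A measured 0.438, 0.411 and 0.632 CPM (log2 0.23 ± 0.57) and DMKN 121, 135 and 102 CPM (log2 0.22 ± 0.18), both overlapping their controls.

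Androgen replicate 2 was the highest of the 3 for 9 of 10 members, SPRR2A being the exception, and replicate 1 was the lowest for 6. Basal markers moved with this spread. KRT5 was at 2348, 6631 and 3060 CPM in androgen replicates 1, 2 and 3, KRT14 at 912, 4174 and 689 CPM, and the 10 basal markers summed to 4776, 13320 and 5970 CPM. In ACP control the sum was 19720 and 15830 CPM, and in plastic control 15560 and 16160 CPM. The 7 proliferation markers summed to 2483, 2411 and 2216 CPM with androgen, 2008 and 2083 CPM in ACP control and 1428 and 1376 CPM in plastic control. The part of either marker set in the members' values was not tested. Without androgen replicate 2, 8 members were called lower, SPRR1B, KRT13, KRT16 and SBSN joining the 4. The share of all genes called in either direction was 13.9% there and 7.4% without androgen replicate 1. In the fit of all 34 libraries SPRR1A was not called lower (log2 -1.48, adjusted p = 0.118 by edgeR). Without androgen replicate 1, TGM1 was the only member called, and without either ACP control library 0 members and 0 of 14685 or 14967 genes were called by edgeR.

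Against plastic control, RWPE in androgen medium on ACP differed in surface, medium and labelled culture time at once. TGM1 fell, from 68.6 and 89.0 CPM to the 24 to 62.7 CPM given above, and it was the only member called of 10, where 44.7% of all genes were called and 20.6% called lower. Its log2 difference was -0.86 ± 0.32 (adjusted p = 0.0479 by edgeR), and the call was lost without each plastic library and without androgen replicate 1 or 3 (log2 -1.04 to -0.58, adjusted p 0.0642 to 0.238). The median over the members was 0.45. IVL had a log2 difference of -1.38 ± 0.58 (adjusted p = 0.0757 by edgeR), and KRT13 of 1.13 ± 0.61 and SPRR2A of 1.22 ± 0.59 the other way. KRT16 (log2 -0.22 ± 0.56) and SPRR1A (0.23 ± 0.38) were near 0. The sign of KRT16 turned without androgen replicate 3 (log2 0.21), and that of SPRR1A without plastic control replicate 1 (-0.02) or androgen replicate 2 (-0.10). DMKN lay above plastic control in all 3 androgen libraries (log2 0.40 ± 0.18, adjusted p = 0.0917 by edgeR). TGM1 was thus 132 CPM on average in ACP control, 78.8 CPM in plastic control and 41.9 CPM in ACP androgen, 3 groups whose libraries did not overlap.

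Other genes of the squamous programme were described from lists on which no member stands. These lists were chosen with earlier results of these data known, so their counts are a description and not independent evidence. On ACP in control medium, where 2.83% of all genes were called higher, 6 of 18 tested genes of the cornified envelope and the epidermal differentiation complex rose and 0 fell (median log2 1.32). S100A8 and S100A9, the calprotectin subunits of inflamed epidermis, rose from 3.36 to 34 CPM and from 16.2 to 104 CPM (log2 3.36 ± 0.42 and 2.70 ± 0.26). PI3, the elastase inhibitor elafin, rose from 16.1 to 99.5 CPM (log2 2.66 ± 0.63). KRT10, the suprabasal keratin of epidermis, rose from 51.8 to 137 CPM (log2 1.42 ± 0.23) and was the 1 keratin called of 11. Of 12 desmosome genes, 1 rose, DSG1, at 1.11 against 0.026 CPM (named after its values were seen).

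Among transcription factors of stratified epithelium, 5 of 20 rose and 0 fell on ACP. Among them, BARX2 rose from 18 to 44.9 CPM (log2 1.34 ± 0.24) and ELF3 from 105 to 231 CPM (log2 1.17 ± 0.23). Of 26 barrier proteases, inhibitors and lipid enzymes, 7 rose and 0 fell. They included SERPINB3 (log2 2.21 ± 0.51), a serpin of squamous epithelium, and the kallikrein proteases KLK8 (2.12 ± 0.47) and KLK11 (2.02 ± 0.43). Of 10 basal markers 1 was called, KRT15, rising from 26.8 to 221 CPM (log2 3.07 ± 0.63; named after its values were seen). Without 1 of the 4 libraries these counts were 0 to 2 per list, as calls over all genes also dropped.

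In androgen medium on ACP, where 8.05% of all genes were called lower and 19.1% in either direction, called genes of the same lists all fell. Of 18 envelope genes 6 fell (median log2 -1.02), among them CLIC3 (log2 -1.68 ± 0.51), the matrix protein ECM1 (-1.28 ± 0.32) and the envelope scaffold EVPL, envoplakin (-1.22 ± 0.16). Of 11 keratins 5 fell, with KRT6A, the partner of KRT16, going from 712 to 213 CPM (log2 -1.71 ± 0.47) and KRT17 from 3682 to 1234 CPM (log2 -1.55 ± 0.49). Of 12 desmosome genes 5 fell, including the plaque proteins PKP1 (log2 -1.51 ± 0.30), DSP (-1.27 ± 0.25) and JUP (-1.10 ± 0.21). Of 20 transcription factors 10 fell and none of the rest had a positive difference. NOTCH3, a receptor that drives keratinocytes out of the basal layer, fell from 242 to 88.3 CPM (log2 -1.43 ± 0.19), and KLF4 from 135 to 49.4 CPM (log2 -1.43 ± 0.37). Of 26 barrier genes 9 fell, led by KLK10 (log2 -1.90 ± 0.56), KLK11 (-1.49 ± 0.39) and ALOXE3 (-1.24 ± 0.38), a lipoxygenase of barrier lipid synthesis. Of 10 basal markers 5 fell, KRT5 by 1.16 and TP63 by 0.82 on the log2 scale. No gene of these lists was called without either ACP control library, where no gene of the table was called at all.

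Against plastic control, RWPE in androgen medium on ACP had called genes of the lists in both directions, where 24.1% of all genes were called higher and 20.6% lower. The 44.7% called in all is near the share of several lists, so their counts are given as a description. Of 18 envelope genes, 5 rose, led by S100A8 (log2 3.15 ± 0.41), S100A9 (3.03 ± 0.25) and PI3 (1.61 ± 0.58), and 4 fell, led by PPL, periplakin (-1.65 ± 0.21), ECM1 (-1.21 ± 0.32) and EVPL (-1.18 ± 0.16). Of 11 keratins, KRT10 rose (log2 1.60 ± 0.21) and 3 fell. Of 20 transcription factors 2 rose and 6 fell, with NOTCH1 lowest (log2 -1.83 ± 0.19), and of 12 desmosome genes 6 fell, with JUP lowest (-1.42 ± 0.21). Of 26 barrier genes 7 rose and 2 fell, and of 10 basal markers 1 rose and 7 fell. Without 1 library the genes called were 5 to 13 of the envelope list, 2 to 6 keratins, 3 to 13 transcription factors, 2 to 7 desmosome genes, 2 to 13 barrier genes and 5 to 9 basal markers. The share of all genes called moved too, at 36.7%, 38.8% and 57.4% without androgen replicate 1, 2 or 3. S100A8, S100A9, PI3 and KRT10 were thus higher than plastic control in both ACP groups, which share that control.

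**Figure D3:**
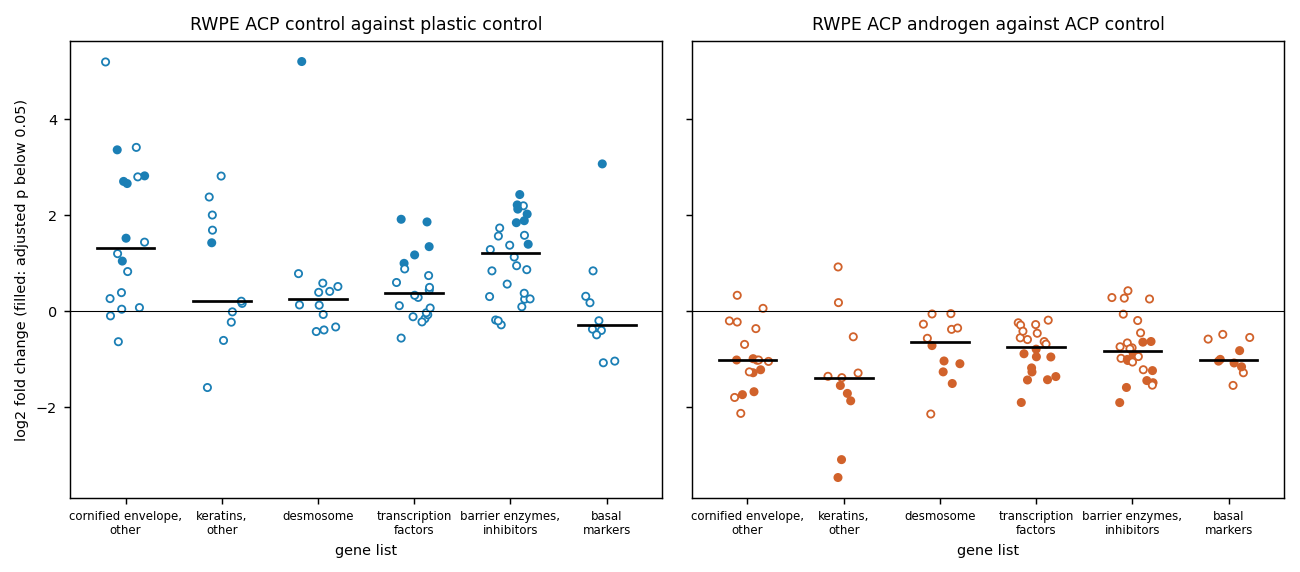
Log2 fold change (y axis) of each tested gene in 5 squamous gene lists and the basal markers (x axis) for ACP control against plastic control (left) and androgen against ACP control (right), with a bar at each list's median and filled points for an adjusted p below 0.05. Called genes lie above 0 on the left and below 0 on the right in every list shown.

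The members did not move as 1 block among themselves. Over the 7 RWPE libraries, log2 CPM of IVL and TGM1 correlated at r = 0.977, SPRR1A and A2ML1 at 0.972 and SPRR1B and A2ML1 at 0.971. DMKN correlated at -0.401 with IVL and -0.355 with TGM1. These values describe 7 libraries that share 3 group means and carry no test. The non-member genes whose log2 CPM was most like the members' mean over the 7 libraries were ZSWIM5 (r = 0.979), PDLIM1, ATP6V1B1, IGFL1 and IRF1 (r = 0.975). Over the 17 group means they included TRIM29 (r = 0.982), S100A2 (0.981), FADS3 and UNC5B-AS1 (0.979), where the order mostly separates RWPE from the other lines.

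Outside RWPE most members were at or near 0 reads. SPRR2A had 0 reads in 26 of the 27 libraries of the cancer lines, SPRR1B in 22, SPRR1A in 18 and KRT13 in 14. In plastic control the fitted test called 9 members lower in LNCaP than in RWPE (27.9% of 17323 genes were called lower), 10 in VCaP (30.3%) and 10 in MDAPCa2a (28.4%). In ACP androgen the counts were 8 in LNCaP (34.8%), 9 in VCaP (34.6%) and 10 in MDAPCa2a (34.2%). Members passed the filter on low counts through their RWPE levels, so these counts are a description of where the genes are read and not a measure of how the list compares with others.

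KRT16 lay at 450 CPM in RWPE plastic control and 0.665, 0.181 and 0.329 CPM in LNCaP, VCaP and MDAPCa2a. From 61, 14 and 23 reads these are ratios of 684 (95% interval 532 to 894), 2440 (1450 to 4460) and 1370 (911 to 2160), intervals that cover counting error only. SPRR1B had 757 reads in RWPE plastic control and 0 in each of the other lines, so it was at least 303-fold higher than in LNCaP, 248-fold higher than in VCaP and 228-fold higher than in MDAPCa2a, taking 3 reads per group as the limit of a count of 0. DMKN was 241-fold higher in RWPE than in LNCaP (174 to 345) and 84.6-fold higher than in VCaP (68.2 to 106). TGM1 was read in all 27 libraries of the cancer lines, at 0.423 to 4.16 CPM against 24 to 150 CPM in RWPE. The highest KRT16 value outside RWPE was 1.39% of the lowest in RWPE, and that of SPRR1B 1.08%.

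**Figure D4:**
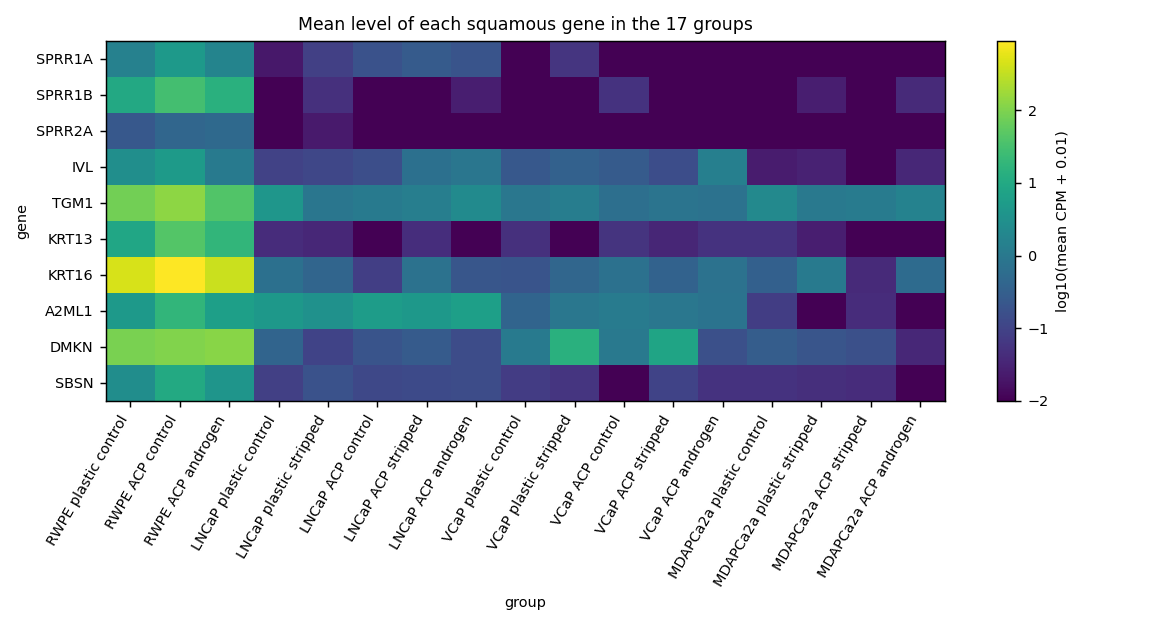
Mean CPM as log10(CPM + 0.01) (colour) for each of the 10 genes (rows) in the 17 groups (columns). The 3 RWPE columns are the brightest for most genes, while A2ML1 in LNCaP, DMKN in the stripped VCaP groups and IVL in several androgen and stripped groups stand out among the cancer lines.

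IVL and A2ML1 were the 2 members for which cancer-line libraries reached the lowest RWPE library, 9 of 27 for each gene. That RWPE library was ACP androgen replicate 1, at 0.25 CPM (4 reads) for IVL and 2.69 CPM for A2ML1. The highest IVL value in a cancer line, 1.56 CPM, lay below every RWPE plastic control and ACP control library. A2ML1 lay at 2.6 to 6.97 CPM in the 10 LNCaP libraries, and its plastic control means were 4.45 CPM in LNCaP and 4.62 CPM in RWPE (log2 -0.05 ± 0.50, adjusted p = 0.943 by edgeR). In androgen medium on ACP they were 6.21 and 6.33 CPM (log2 -0.03 ± 0.46, adjusted p = 0.979 by edgeR). RWPE ACP control, at 16.6 and 19.8 CPM, was the only group that stood wholly above the LNCaP libraries. In order of mean level, 6 groups from RWPE ACP androgen to LNCaP ACP stripped followed with each overlapping the next. VCaP lay at 0.379 to 1.43 CPM and MDAPCa2a at 0 to 0.0827 CPM.

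The order of IVL levels ran across lines, media and surfaces. RWPE ACP control (5.11 CPM) and RWPE plastic control (2.86 CPM) were highest and overlapped. VCaP ACP androgen (1.39 CPM), RWPE ACP androgen (1.06 CPM), LNCaP ACP androgen (0.877 CPM) and LNCaP ACP stripped (0.659 CPM) followed, with each overlapping the next except that LNCaP ACP stripped stood clear of all groups below it. The other 11 groups were at 0.336 CPM or less. In androgen medium on ACP, IVL did not differ past the threshold between RWPE and LNCaP (log2 of LNCaP over RWPE -0.27 ± 0.61) or VCaP (0.39 ± 0.60). The ratio of RWPE to LNCaP was 1.23 (95% counting interval 0.83 to 1.81).

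Within LNCaP, 5 of 10 members passed the filter (IVL, TGM1, KRT16, A2ML1 and DMKN). IVL rose in ACP androgen over ACP control, from 0.215 and 0.073 CPM (6 and 2 reads) to 1.04 and 0.718 CPM (30 and 22 reads). The log2 difference was 2.54 ± 0.69 (adjusted p = 0.0322 by edgeR), where 15.1% of all genes were called. It was the 1 member called of 5, and the call was lost without either control library or androgen replicate 1 (log2 1.96 to 3.51, adjusted p 0.06 to 0.169). Stripped medium on ACP gave 0.582 and 0.736 CPM, above ACP control (log2 2.14 ± 0.71, adjusted p = 0.109 by edgeR) and plastic stripped at 0.0513 and 0.153 CPM (2.88 ± 0.77, adjusted p = 0.0511). Androgen over stripped on ACP had a log2 difference of 0.40 ± 0.57, and its libraries overlapped none of the ACP control values.

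TGM1 in LNCaP was highest in plastic control, at 4.16 and 3.84 CPM, and at 0.51 to 1.28 CPM in plastic stripped and 1.06 to 1.07 CPM in ACP control. Neither difference passed edgeR (log2 -2.05 ± 0.61, adjusted p = 0.0582, and -1.80 ± 0.60, adjusted p = 0.0705). DESeq2 called 1 of the 5 members, lower, in each of these comparisons. By edgeR 0 of 5 members were called in these 2 comparisons, where 9.45% and 12.6% of genes were. At an unadjusted p below 0.05 by edgeR there were 1 and 2 of 5 members, and 3668 and 4631 of 14656 genes. For ACP stripped against ACP control (5.37% of genes called) and against plastic stripped (6.12%), 0 of 5 members were called by edgeR and 0 by DESeq2. At an unadjusted p below 0.05 by edgeR there were 2 and 1 members, and 3198 and 3743 of 14656 genes. For androgen against stripped on ACP (7.73%) the 3 member counts, by edgeR, by DESeq2 and by unadjusted p, were 0. Of 14656 genes, 3518 had an unadjusted p below 0.05 by edgeR. KRT16 in LNCaP had 0 to 44 reads per library and uneven pairs.

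In VCaP, DMKN rose in stripped medium on ACP, from 1.17 and 0.821 CPM to 10.0 and 5.45 CPM (25 and 19 reads to 206 and 133), a log2 difference of 2.97 ± 0.49 (adjusted p = 0.0347 by edgeR), where 0.82% of all genes were called. On plastic the single stripped library held 14.3 CPM (297 reads) against 0.70 and 1.45 CPM (log2 3.76 ± 0.53, adjusted p = 0.038 by edgeR, 0.89% of genes called), a test that takes the lone library to vary like the others and that was lost with a replicate block (log2 3.64, adjusted p = 0.0615). With androgen added to stripped medium on ACP, DMKN fell to 0.173 and 0.131 CPM (4 and 3 reads), a log2 difference of -5.62 ± 0.61 (adjusted p = 0.00103 by edgeR), where 17.5% of genes were called. It also lay below ACP control (log2 -2.65 ± 0.63, adjusted p = 0.0393 by edgeR, 5.99% of genes called). The fall against stripped medium was called without each of the 4 libraries, whereas the rise on ACP was lost without either control or stripped replicate 1 (log2 2.43 to 3.26, adjusted p 0.189 to 0.238), and the fall below ACP control without any 1 library (log2 -2.90 to -2.36, adjusted p 0.139 to 0.178).

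The 7 fibroblast markers summed to 41.5 to 163 CPM in VCaP ACP stripped and 52.3 CPM in plastic stripped, to 36.8 to 44.5 CPM in ACP control, 17 to 44.9 CPM in plastic control and 7.75 to 8.63 CPM in ACP androgen, with 1 or 2 of them at 0 in each group. Their part in the DMKN values was not tested. On ACP with androgen, IVL in VCaP moved the opposite way to DMKN. It rose from 0.195 and 0.082 CPM in ACP stripped to 1.56 and 1.23 CPM in ACP androgen (log2 3.32 ± 0.76, adjusted p = 0.0172 by edgeR), from 4 and 2 reads to 36 and 28. The 5 lymphoid and myeloid markers summed to 7.34 to 13 CPM in VCaP ACP stripped, 3.24 to 5.21 CPM in ACP control and 81.8 to 155 CPM in ACP androgen, with 2 of them at 0 in each of these groups, and their part in the IVL values was not tested. The IVL call was lost without any 1 of the 4 libraries (log2 2.81 to 4.06, adjusted p 0.0545 to 0.0725). Over ACP control the log2 difference was 2.48 ± 0.70 (adjusted p = 0.0676 by edgeR). In VCaP 5 of 10 members passed the filter, the same 5 as in LNCaP, and TGM1, KRT16 and A2ML1 were called in none of the 6 VCaP comparisons. Of 15614 genes, 1123 had an unadjusted p below 0.05 by edgeR for ACP against plastic in VCaP control medium. For ACP against plastic in VCaP 0 of 5 members were called by edgeR and by DESeq2, in control medium (0.0448% of genes called, 1 member at an unadjusted p below 0.05) and in stripped medium (0%, with 0 members).

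In MDAPCa2a 2 of 10 members passed the filter, TGM1 and KRT16, and neither was called by edgeR or DESeq2 in 3 comparisons. Genes called were 1.58% for plastic stripped against plastic control, 0.00734% for ACP against plastic in stripped medium and 0% for androgen on ACP. KRT16 lay at 1.56 and 0.606 CPM in plastic stripped and at 0 and 0.0581 CPM in ACP stripped, with an unadjusted p below 0.05 in each of the 3. TGM1 had an unadjusted p below 0.05 in the first. Of all 13626 genes, 2208, 2071 and 236 had one by edgeR in the 3 comparisons, in the order given. IVL, A2ML1, SPRR1A, SPRR1B and SPRR2A together had at most 3 reads in any MDAPCa2a library and gene.

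**Figure D5:**
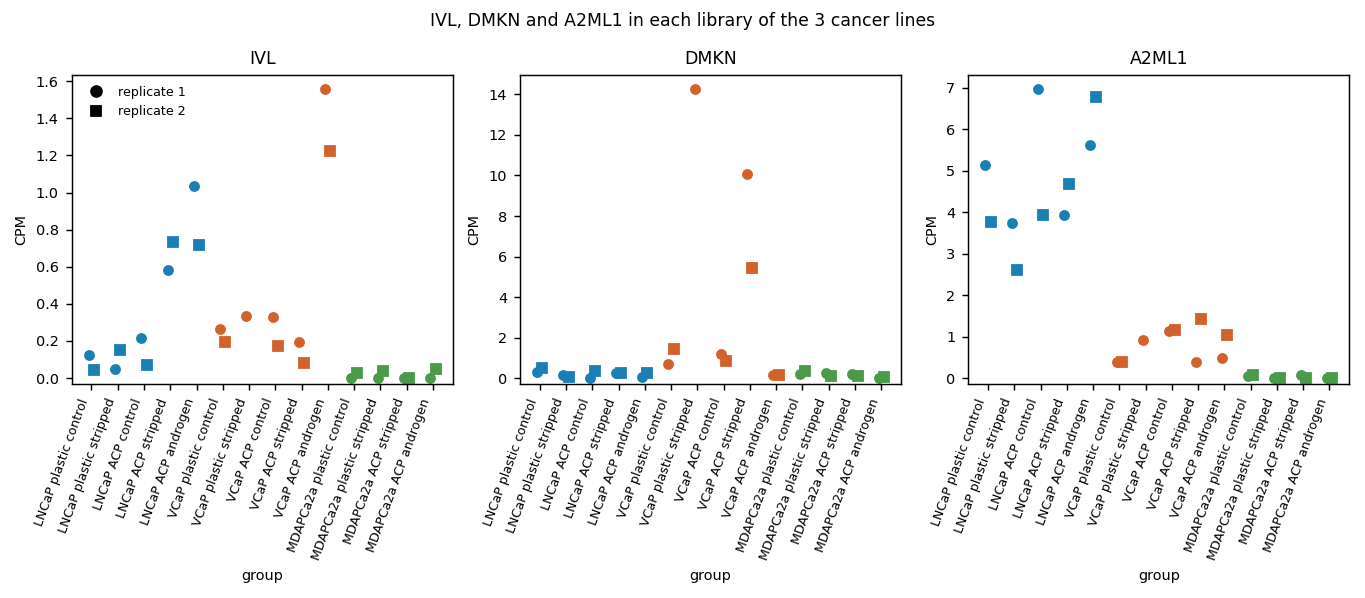
CPM (y axis, linear) of IVL, DMKN and A2ML1 in each library of the 3 cancer lines by group (x axis), with blue for LNCaP, orange for VCaP, green for MDAPCa2a and marker shape for the replicate. IVL is highest in VCaP ACP androgen at 1.23 and 1.56 CPM, DMKN in the stripped VCaP libraries at 5.45 to 14.3 CPM, and A2ML1 in LNCaP at 2.6 to 6.97 CPM.

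Whether RWPE responded differently from another line was tested as a difference of effects in a fit of all 34 libraries. Members with 0 reads in a whole group give no usable difference of effects, which left out SPRR1B, SPRR2A and KRT13 against LNCaP and SPRR1A, SPRR1B, SPRR2A and SBSN against VCaP. For the surface in control medium, edgeR called 0 of the 7 remaining members between RWPE and LNCaP (0.156% of genes called) and 0 of 6 between RWPE and VCaP (0.185%). At an unadjusted p below 0.05 by edgeR there were 3 and 0, beside 1625 and 1353 of all 17323 genes. DESeq2 called 1 and 0 of all 10 members. For androgen against control medium on ACP, 2 of 7 differed between RWPE and LNCaP (18.6%) and 2 of 6 between RWPE and VCaP (8.6%). IVL fell in RWPE while its mean was higher with androgen in LNCaP and VCaP, a log2 difference of effects of -4.83 ± 0.98 against LNCaP (adjusted p = 0.00222 by edgeR) and -4.73 ± 0.95 against VCaP (adjusted p = 0.00363). TGM1 fell in RWPE and was at 1.06 and 1.07 CPM in LNCaP ACP control and 3.80 and 0.881 CPM in LNCaP ACP androgen, a difference of effects of -2.77 ± 0.67 (adjusted p = 0.00602 by edgeR). It was lost without LNCaP ACP androgen replicate 1 (log2 -1.38, adjusted p = 0.22). DMKN had a log2 difference of 0.22 in RWPE and -2.65 in VCaP, and these effects differed by 2.87 ± 0.78 (adjusted p = 0.0242 by edgeR). That call was lost without either RWPE ACP control library, VCaP ACP control replicate 1 or either VCaP ACP androgen library (log2 2.59 to 3.07, adjusted p 0.058 to 0.112). Control medium differs between the lines, being free of serum in RWPE alone, so line and medium base cannot be told apart here.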

How the data were processed

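Counts of reads per gene were deposited by the authors for 34 libraries, made with STAR and HTSeq on hg19 per the submitters' processing notes, with versions and use of strand not given in the sources used here. The 10 genes and all lists were chosen with earlier results of these data known. All 10 genes are named, and of each list the called genes with the largest changes, given that their higher group averaged 5 CPM or more. edgeR 4.0.16 (R 4.3.3) was run on the counts within each line using TMM, filterByExpr (minimum count 10), quasi-likelihood F tests and Benjamini-Hochberg adjustment over all genes tested, calling an adjusted p below 0.05. Lines were compared in 1 fit of all 34 libraries, which also gave the TMM sizes of every CPM. 4335 of 26336 genes had 0 reads in every library. The filter passed 14293 genes in RWPE, 14656 in LNCaP, 15614 in VCaP, 13626 in MDAPCa2a and 17323 in all. Standard errors are the log2 change divided by the root of F, and ± after a log2 value is that error. Correlations used log2 CPM with a prior count of 1. Alternatives were RLE size factors, no filter, a replicate block, DESeq2 1.42.0, the fit of all libraries and leaving out each library. The procedure was tested on simulated data. Promoter windows came from RefSeq. Some genes that the naming rule selects are not reported here.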

Additional observations from a re-analysis of the deposited data

Results flagged for a closer look

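The response to androgen medium on ACP was compared between lines by a test of the difference itself. Between RWPE and LNCaP it differed for 2 of 7 members with reads in all groups, where 18.6% of all genes were called. Between RWPE and VCaP it differed for 2 of 6, where 8.6% were called. IVL differed by -4.83 ± 0.98 (log2, SE) between RWPE and LNCaP (adjusted p = 0.00222 by edgeR) and by -4.73 ± 0.95 between RWPE and VCaP (adjusted p = 0.00363 by edgeR). Leaving out each of 9 libraries in turn gave -5.77 to -4.28 (adjusted p 0.0012 to 0.0172) and -5.41 to -4.31 (adjusted p 0.00139 to 0.0301). TGM1 differed by -2.77 between RWPE and LNCaP, and by -3.48 to -1.38 without 1 library (adjusted p 0.000734 to 0.22). DMKN differed by 2.87 between RWPE and VCaP, and by 2.59 to 3.11 without 1 library (adjusted p 0.0196 to 0.112). The RWPE libraries are the same in both pairs of lines, so the IVL values are not independent. No group held the 4 libraries needed to test for a library far from the rest.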

How the results depend on the processing

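With no count filter, members called went from 1 to 5 for ACP control against plastic control in RWPE. They went from 4 to 8 for androgen against ACP control and from 1 to 2 for androgen against plastic control. The share of all genes called in these 3 comparisons was 6.18%, 15.7% and 32.9%, against 4.16%, 19.1% and 44.7% with the filter. In the same setting LNCaP ACP control against plastic control went from 0 to 2, and the other 3 LNCaP comparisons of stripped medium with control or of stripped medium across surfaces, MDAPCa2a ACP stripped against plastic stripped, and the surface effect of RWPE minus LNCaP each went from 0 to 1. DESeq2 called 4 members for the RWPE surface, 6 for androgen against ACP control (SPRR1B and SBSN joining) and 2 for androgen against plastic control. Its share of all genes called there was 9.8%, 28.4% and 46.9%. It called 1 each for LNCaP ACP control and LNCaP plastic stripped against plastic control and for the surface effect of RWPE minus LNCaP. The fit of all 34 libraries called 2 for the RWPE surface (KRT13 and A2ML1, with SPRR1A lost), where 4.8% of all genes were called. It called 0 for RWPE androgen against plastic control, where 37.1% of all genes were called. It called 1 each for the same 2 LNCaP comparisons and 2 for VCaP ACP androgen against ACP control. Outside the 3 RWPE comparisons, the share of all genes called was not recorded under the alternatives, the replicate block and the leave-outs below included. Counts of members there stand without a background. RLE size factors changed no call of a member. CPM scaled by total counts stood at ratios of 0.835 to 1.13 to TMM CPM over 130 group levels. Of these, 8 moved by more than 1 SD, or beyond a counting interval in the group of 1 library.

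Same-numbered libraries did not pair in RWPE (correlations of -0.046 to 0.092 over 3 pairs of groups). In the other lines correlations had both signs, with no pairing held across groups. They were -0.177 to 0.255 over 10 pairs in LNCaP, -0.294 to 0.213 over 6 in VCaP and -0.337 to 0.42 over 6 in MDAPCa2a. The highest, 0.42, was between MDAPCa2a ACP stripped and ACP androgen. With a replicate block, where RWPE androgen replicate 3 drops out, members called were 6 for the RWPE surface, 8 for androgen against ACP control, 4 (3 higher, 1 lower) for androgen against plastic control, 1 each for LNCaP ACP control and LNCaP plastic stripped against plastic control, and 0 for VCaP plastic stripped against plastic control. The block also raised the share of all genes called to 18.6%, 40.2% and 55.8% in the 3 RWPE comparisons. Under the block, SPRR2A turned to -0.012 (log2) for androgen against ACP control and KRT16 to 0.12 for androgen against plastic control.

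Leaving out 1 library gave 0 to 1 members for the RWPE surface, 0 to 8 for androgen against ACP control, 0 to 3 for androgen against plastic control, 0 to 2 for LNCaP ACP androgen against ACP control, 0 to 1 for VCaP ACP stripped against ACP control, 0 to 0 for VCaP ACP androgen against ACP control and 1 to 1 against ACP stripped. It gave 1 to 3 for the androgen effect of RWPE minus LNCaP and 1 to 2 for RWPE minus VCaP. For androgen against plastic control, signs turned within the ranges of KRT16 (log2 -1.219 without androgen replicate 2 to 0.213 without replicate 3), SPRR1A (-0.099 to 0.525), SPRR1B (-0.044 to 0.84) and A2ML1 (-0.282 to 0.852), the last 3 lowest without androgen replicate 2. SPRR1A was also at -0.021 without plastic control replicate 1. The share of all genes called moved as well. Without RWPE androgen replicate 1, 2 or 3 it was 7.4%, 13.9% and 42.3% for androgen against ACP control. Against plastic control it was 36.7%, 38.8% and 57.4%. Leaving out an RWPE plastic or ACP control library left 1 library in that group. The single VCaP plastic stripped library could not be left out. SPRR2A, at 5 to 15 reads per RWPE library, is limited by depth.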
